A study of Mus musculus with 24 samples.

Results

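Genes of lipid-laden phagocytes, the macrophages and microglia that fill with lipid droplets after engulfing myelin and dead cells, were followed in the right hippocampus of newborn mice. The list held 10 genes: Plin2, Gpnmb, Msr1, Cd68, Lgals3, Spp1, Apoe, Trem2, Cd36 and Abca1. A gene was taken as measured where an array row carried its symbol alone. This gave 9 genes, each with 1 such row, among 23238 rows, of which 14939 carried a single symbol. Spp1, which encodes osteopontin, had no such row and was not measured. The 24 BALB-c pups were 10 days old, with 1 Affymetrix exon array each. They fell into 4 groups of 6: brain-injured with high-dose recombinant erythropoietin (injured EPO, titles starting Epo_Y), sham-injured with it (sham EPO, Sham_Y), brain-injured without it (injured none, Epo_N) and sham-injured without it (sham none, Sham_N). Erythropoietin (EPO) is the hormone of red cell formation, and the labels place the injury on the side where the carotid artery was ligated. The EPO dose, its timing and the day of injury are not known from the labels.

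The 6 arrays labelled sham EPO stood above the other 18 for Plin2, Gpnmb, Msr1, Cd68 and Cd36, and overlapped injured EPO for the rest. Their titles can be read so that "Sham" names the treatment and "Y" the injury, which would exchange sham EPO with injured none and leave the remaining groups in place. No value used here settles the reading. Groups are named as labelled, and the direction of any difference between groups that uses sham EPO or injured none depends on those labels. The EPO difference in injured mice minus that in sham mice is the same under either reading.

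Phagocytes take up lipid through scavenger receptors, degrade it in lysosomes, store the excess as cholesteryl esters and triglycerides in droplets, and release cholesterol to apolipoprotein particles. In the brain, microglia and infiltrating macrophages do this after injury, and astrocytes supply most of the apolipoprotein. In the list, Msr1, Cd36 and Cd68 belong to uptake and degradation, Gpnmb, Trem2 and Lgals3 to the phagocytic state, Plin2 to storage, and Abca1 and Apoe to export.

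The values are log2 expression as the authors deposited them. Array medians ran from 5.05 to 5.43. Markers of hippocampal neurons were clearly measured, with Neurod6, a transcription factor of pyramidal neurons, at a mean of 10.10 on sham none arrays. The residual fit was shared by all 24 arrays, with a median standard error (SE) of 0.14 for a difference between groups. Whole tissue was profiled, so more phagocytes and more RNA per phagocyte cannot be told apart in any value below. The members were chosen with the difference between sham EPO and sham none in view. That comparison, and others that use the sham EPO arrays, are therefore given as descriptions with no test of the members. Tests against sham none share its arrays with the comparison in view, so they are not independent of the choice of members.

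Plin2, the perilipin that coats cytosolic lipid droplets, had the largest difference of the 9 genes between sham EPO and sham none. Its lowest, median and highest log2 levels were 6.23, 7.92 and 9.91 on injured EPO arrays, 10.56, 10.67 and 11.05 on those labelled sham EPO, 6.70, 7.13 and 7.20 on injured none and 6.05, 6.65 and 6.83 on sham none. All sham EPO values lay above the 18 others, the injured none and sham none ranges overlapped, and the injured EPO values spread across most of the gap. Sham EPO exceeded sham none by 4.18 ± 0.42 (log2 difference ± SE, n = 6 each), or 18.2-fold. The Plin2 row was already at a middling level in sham none, above 64.0% of all rows.

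The receptors for uptake also stood highest in sham EPO. Msr1 encodes the class A macrophage scavenger receptor, which binds modified lipoproteins. It read 2.78, 3.17 and 5.14 on injured EPO arrays, 6.27, 6.59 and 6.76 on those labelled sham EPO, 2.85, 2.89 and 3.07 on injured none and 2.84, 2.91 and 3.01 on sham none (lowest, median and highest of 6). The injured none and sham none arrays sat together near the low end of the table, since only 18.9% of rows had a lower sham none mean. The sham EPO minus sham none difference was 3.61 ± 0.31. Cd36, a class B scavenger receptor and fatty acid transporter that capillary endothelium also carries, was likewise dim in sham none. Levels of Cd36 were 3.00, 3.42 and 4.33 on injured EPO arrays, 5.18, 5.43 and 6.09 on those labelled sham EPO, 3.31, 3.36 and 3.49 on injured none and 2.97, 3.12 and 3.46 on sham none (lowest, median and highest of 6). No sham EPO array overlapped any other group, and the difference from sham none was 2.34 ± 0.18.

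Cd68, a glycoprotein of phagocyte lysosomes and endosomes, stood above 67.1% of all rows in sham none. Its levels were 6.23, 8.10 and 9.81 on injured EPO arrays, 9.82, 9.91 and 10.31 on those labelled sham EPO, 6.94, 7.06 and 7.30 on injured none and 6.51, 6.84 and 7.20 on sham none (lowest, median and highest of 6). The highest injured EPO array fell just short of the lowest sham EPO array. Sham EPO exceeded sham none by 3.13 ± 0.37, or 8.78-fold.

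Among genes of the phagocytic state, Gpnmb encodes a transmembrane glycoprotein of phagosomes and lysosomes. Gpnmb read 3.91, 4.94 and 5.63 on injured EPO arrays, 6.08, 7.17 and 7.49 on those labelled sham EPO, 3.67, 3.74 and 3.89 on injured none and 3.46, 3.76 and 3.86 on sham none (lowest, median and highest of 6). The injured EPO arrays all lay between the no-EPO groups and sham EPO, with no overlap on either side. Sham EPO minus sham none was 3.22 ± 0.28. Lgals3 encodes galectin-3, a sugar-binding lectin that activated phagocytes release and that gathers on damaged lysosomes. Its readings were 4.80, 5.17 and 6.44 on injured EPO arrays, 6.29, 6.82 and 6.93 on those labelled sham EPO, 4.44, 4.61 and 4.79 on injured none and 4.43, 4.65 and 4.92 on sham none (lowest, median and highest of 6). One sham EPO array, replicate 5, fell below the highest injured EPO array, and the sham EPO difference from sham none was 2.08 ± 0.20. Trem2, the microglial receptor that senses lipids and lipoproteins, stood near the middle of the table, above 53.0% of all rows in sham none. Its levels stood at 4.81, 5.79 and 7.10 on injured EPO arrays, 6.73, 7.07 and 7.37 on those labelled sham EPO, 5.70, 5.89 and 5.96 on injured none and 5.25, 5.42 and 5.75 on sham none (lowest, median and highest of 6). The highest injured EPO value lay inside the sham EPO range. Sham EPO exceeded sham none by 1.59 ± 0.24.

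The export genes had the smallest differences of the 9 between sham EPO and sham none. Abca1 encodes the transporter that loads cholesterol onto apolipoproteins and is a target of the liver X receptors (LXR). Its log2 levels were 7.04, 8.22 and 9.11 on injured EPO arrays, 8.47, 8.92 and 9.67 on those labelled sham EPO, 7.58, 7.93 and 8.32 on injured none and 7.26, 7.84 and 8.03 on sham none (lowest, median and highest of 6). Sham EPO lay above sham none on all 6 arrays but overlapped injured EPO, and the difference from sham none was 1.27 ± 0.26. Apoe, which encodes the lipid carrier apolipoprotein E, was among the brightest rows of the table, above 99.8% of rows in sham none. It read 11.73, 12.21 and 12.51 on injured EPO arrays, 12.20, 12.42 and 12.46 on those labelled sham EPO, 12.01, 12.23 and 12.38 on injured none and 11.93, 12.10 and 12.23 on sham none (lowest, median and highest of 6). The 4 ranges overlapped, and sham EPO exceeded sham none by 0.28 ± 0.11, or 0.11 after centring each array.

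**Figure D1:**
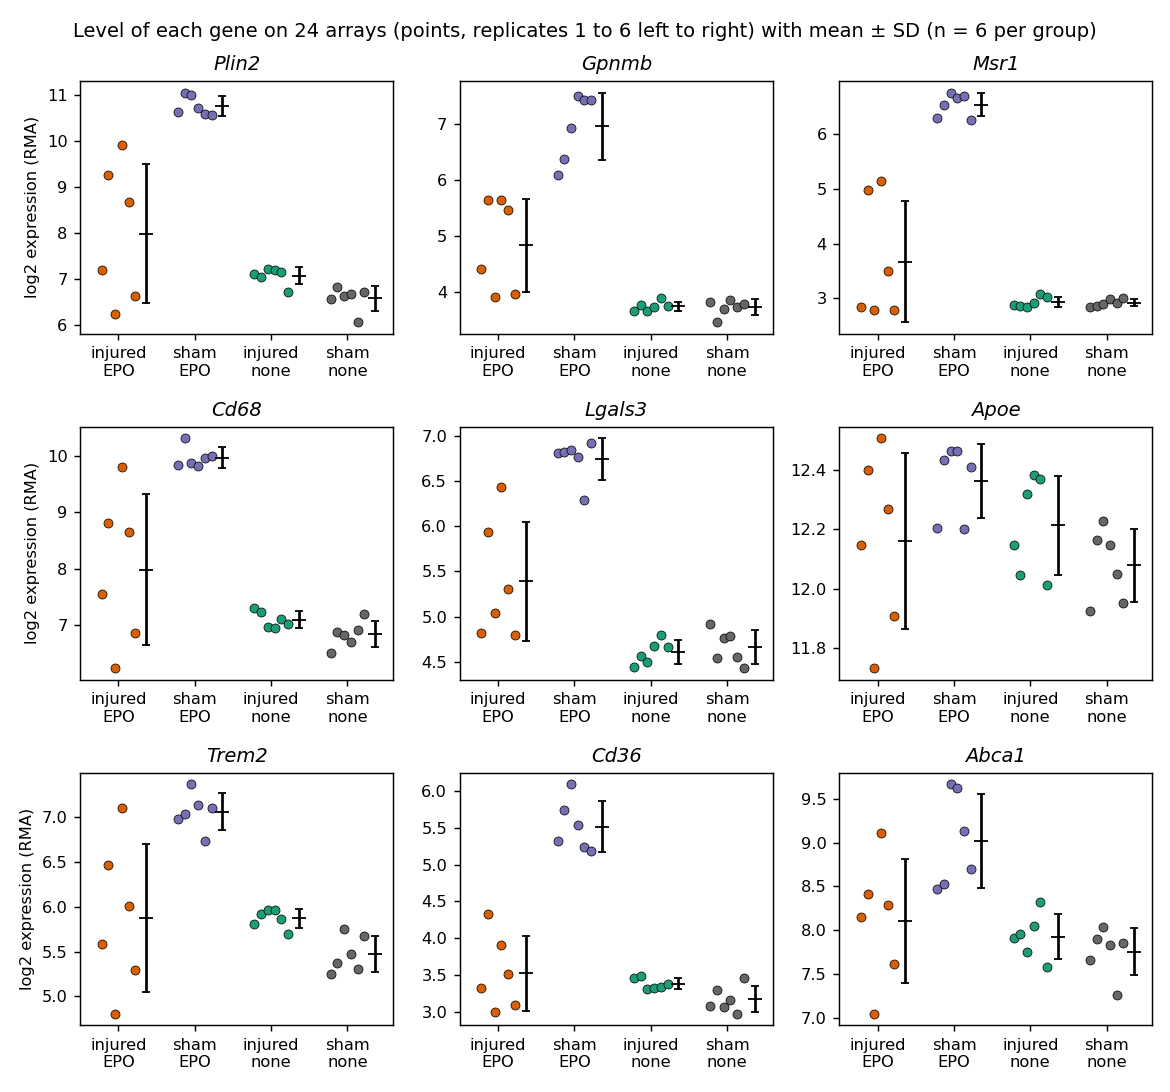
Log2 expression of the 9 measured genes (panels, vertical axis) on each of 24 arrays, grouped on the horizontal axis as labelled. Points are arrays, replicates 1 to 6 from left to right, and bars are mean ± SD (n = 6). Sham EPO sits highest for every gene by its mean, and injured EPO has the widest spread.

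Start-site windows of RefSeq (GRCm38.p6, 250 bases before to 50 after the start) were available for 8 of the 9 measured genes. They were searched on both strands for CACGTG, the E-box core that the lysosomal regulators of the MiT/TFE family bind, and TGANTCA, which holds the AP-1 site. CACGTG was found for Plin2 and Abca1 (7.15% of 32851 windows of all genes hold it), and TGANTCA for Cd68, Gpnmb and Trem2 (7.81% of windows). GAGGAAGT, a site of the myeloid factor PU.1, and TGACNNNGC, the antioxidant element, were in none of the 8 genes and in 3.2% and 12.4% of all windows. The 3 windows of the genes with the largest differences that held a match are printed 5′ to 3′ on the strand of the gene, with matches in capitals, to show where these letters lie. A match is a string of letters, not a measured binding site.
Plin2, chr4:86670010-86670309, minus strand: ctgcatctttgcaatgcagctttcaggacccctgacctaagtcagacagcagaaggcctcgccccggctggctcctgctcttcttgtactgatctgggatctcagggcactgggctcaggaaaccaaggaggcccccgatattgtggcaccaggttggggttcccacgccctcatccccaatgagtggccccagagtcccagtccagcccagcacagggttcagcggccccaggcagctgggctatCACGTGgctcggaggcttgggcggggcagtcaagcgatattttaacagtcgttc
Gpnmb, chr6:49036268-49036567, plus strand: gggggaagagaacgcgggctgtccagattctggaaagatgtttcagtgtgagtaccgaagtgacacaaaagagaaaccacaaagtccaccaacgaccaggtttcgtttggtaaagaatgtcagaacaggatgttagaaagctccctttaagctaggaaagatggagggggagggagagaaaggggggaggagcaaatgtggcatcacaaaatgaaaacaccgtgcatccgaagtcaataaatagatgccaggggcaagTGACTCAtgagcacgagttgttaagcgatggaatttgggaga
Cd68, chr11:69666121-69666420, minus strand: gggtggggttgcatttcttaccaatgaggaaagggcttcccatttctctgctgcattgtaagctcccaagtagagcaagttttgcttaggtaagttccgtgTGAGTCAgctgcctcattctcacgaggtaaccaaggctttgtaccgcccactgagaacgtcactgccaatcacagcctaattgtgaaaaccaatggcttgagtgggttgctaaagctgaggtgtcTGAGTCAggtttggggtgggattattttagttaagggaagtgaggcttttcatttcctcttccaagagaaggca
In Plin2 the match begins 4 bases before the start, in Gpnmb at base 9 after it, and Cd68 holds a pair, at 149 and 24 bases before it. The Abca1 match begins 147 bases before its start.

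In 8 of the 9 genes, all but Apoe, every sham EPO array lay above every sham none array, as did 7.7% of all rows. Every injured EPO array lay below every sham EPO array for 5 genes, Plin2, Gpnmb, Msr1, Cd68 and Cd36, against 2.75% of all rows. These counts describe the contrasts in view when the genes were chosen. The injured EPO minus sham EPO differences were -2.78 ± 0.42 for Plin2, -2.86 ± 0.31 for Msr1 and -2.11 ± 0.28 for Gpnmb. They were smaller in size for Abca1 (-0.92 ± 0.26) and Apoe (-0.20 ± 0.11). The 2 comparisons share the sham EPO arrays, so their opposite signs are not separate evidence. The letter code in the titles, whose meaning is not given, has 7 values. Within code 3D (3 injured EPO, 2 sham EPO, 4 injured none and 2 sham none arrays) sham EPO exceeded sham none by 4.13 for Plin2, 3.82 for Msr1, 3.00 for Cd68 and 0.27 for Apoe, and injured EPO was 2.59 below sham EPO for Plin2. The median sham EPO minus sham none difference of all rows was 0.03 as deposited and -0.15 after array centring.

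**Figure D2:**
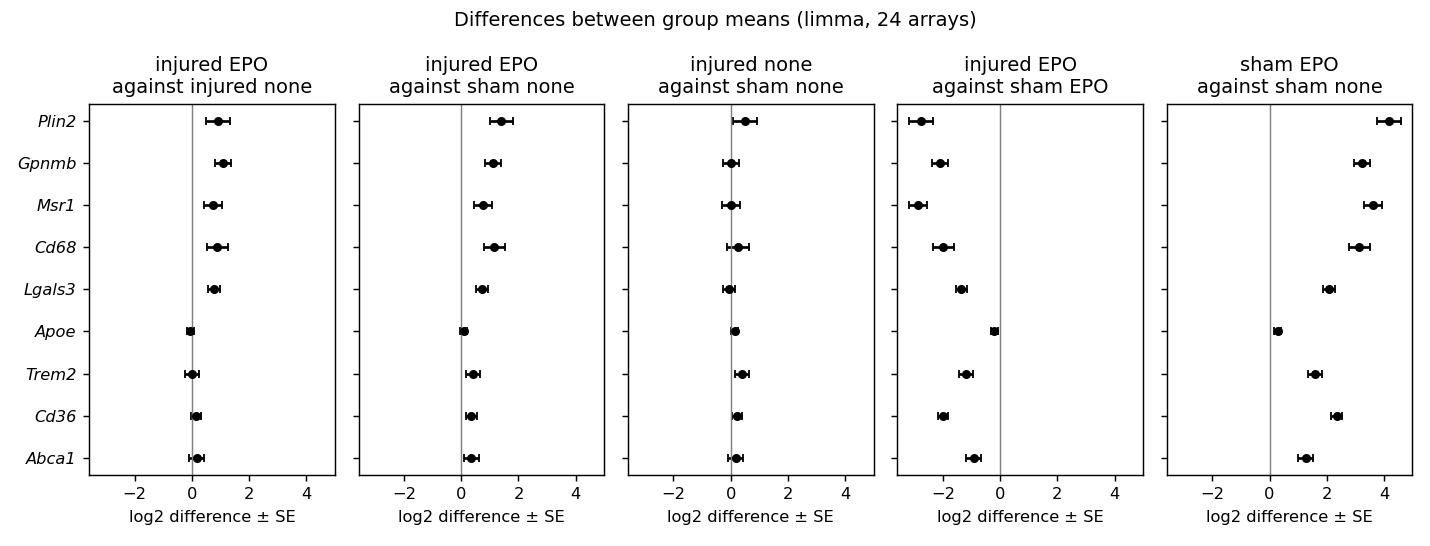
Log2 difference between group means with its SE (horizontal axis) for each of the 9 genes (rows) in 5 comparisons (panels), each from 1 limma fit over 24 arrays. Plin2 reached 4.18 for sham EPO against sham none, while 8 of 9 values for injured EPO against injured none lay above 0 and none passed the threshold.

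Injured EPO against injured none asks what EPO did in injured mice as labelled. The difference is between the means of these groups, while its SE and p rest on the spread in all 4 groups. Injured EPO had the widest spread of the 4 for every gene, as described below. The SE and p of comparisons with injured EPO can therefore be too small. The difference lay above 0 for 8 of 9 genes, all but Apoe (-0.05 ± 0.11), and none passed the threshold. Separation of the groups was complete for Gpnmb and Lgals3, by narrow margins. The lowest injured EPO and highest injured none values were 3.91 and 3.89 for Gpnmb and 4.80 and 4.79 for Lgals3. For Gpnmb, the mean was 4.84 ± 0.83 in injured EPO and 3.75 ± 0.08 in injured none (SD, n = 6 each), a difference of 1.09 ± 0.28 (SE). For Lgals3 it was 5.39 ± 0.66 in injured EPO and 4.61 ± 0.13 in injured none, a difference of 0.78 ± 0.20. Every injured EPO array lay above every injured none array for these 2 genes, as did 0.0947% of all rows. The adjusted p (limma, Benjamini-Hochberg over all rows) was 0.539 for each. Plin2 differed by 0.91 ± 0.42, Cd68 by 0.89 ± 0.37 and Msr1 by 0.74 ± 0.31, with 3, 4 and 3 of 6 arrays above every injured none array. The other 4 genes differed by at most 0.18 ± 0.26 (Abca1), and Trem2 by 0.01 ± 0.24. In limma 0 of 9 genes passed an adjusted p of 0.05, as did 0.0% of all 23238 rows, while 5 of 9 had an unadjusted p under 0.05 against 8.14% of rows. The count stayed at 0 when weights allowed for unequal spread of the groups. With any single array left out, the difference ran from 0.93 to 1.28 for Gpnmb and from 0.57 to 0.90 for Lgals3. Without replicate 4 of injured EPO it was 0.53 for Plin2, 0.53 for Cd68, 0.44 for Msr1 and -0.24 for Trem2, and without replicate 2 it was 0.47 for Msr1.

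The comparison of injured none with sham none asks what injury did without EPO, as labelled. Differences were small for all genes. Plin2 averaged 7.06 ± 0.19 in injured none and 6.57 ± 0.27 in sham none (SD, n = 6 each), a difference of 0.49 ± 0.42, with 5 of 6 injured none arrays above every sham none array. None of the 9 genes separated the groups completely, as 0.503% of rows did. Trem2 averaged 5.87 ± 0.10 in injured none and 5.47 ± 0.20 in sham none, again with 5 of 6 arrays above, and a difference of 0.40 ± 0.24. Gpnmb, Msr1 and Lgals3 differed by 0.02 ± 0.28, 0.01 ± 0.31 and -0.06 ± 0.20. Abca1 differed by 0.17 ± 0.26, or 0.07 without replicate 5 of sham none and 0.09 without replicate 5 of injured none. Limma called 0 of 9 genes and 0.0% of all rows, and 0 of 9 had an unadjusted p under 0.05, against 7.76% of rows. Adjusted p values ran from 0.66 for Trem2 to 0.99 for Msr1.

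Injured EPO against sham none gave differences above 0 for 9 of 9 genes, none past the threshold. They were 1.41 ± 0.42 for Plin2, 1.15 ± 0.37 for Cd68 and 1.11 ± 0.28 for Gpnmb, the last with all 6 injured EPO arrays above all sham none arrays, as for 0.12% of rows. Cd36, Trem2 and Abca1 differed by 0.35 ± 0.18, 0.40 ± 0.24 and 0.35 ± 0.26. Without replicate 4 of injured EPO the differences were 0.16 for Trem2, 0.15 for Abca1 and 0.46 for Msr1. Without replicate 2 they were 0.19 for Cd36 and 0.49 for Msr1, and without replicate 3 they were 0.62 for Trem2 and 0.56 for Abca1. By limma 0 of 9 genes and 0.0% of all rows passed, with adjusted p from 0.658 to 0.954 over the genes, while 5 of 9 genes and 5.91% of rows had an unadjusted p under 0.05. Each pair of these 3 comparisons shares a group of arrays. The sham none arrays were also in view when the genes were chosen, so p values against sham none are not free of that choice.

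The spread among injured EPO arrays was the other feature of these genes. Plin2 had an SD of 1.51 in injured EPO, against SDs of 0.21 for sham EPO, 0.19 for injured none and 0.27 for sham none. That of Msr1 was 1.11 in injured EPO and 0.09 in injured none, and that of Cd68 was 1.34 and 0.15 in the same groups. In 8 of 9 genes, all but Apoe, the injured EPO SD was at least 2 times that of injured none, as it was for 26.2% of all rows. It was at least 2 times that of sham none in 9 of 9 genes (14.8% of rows) and that of sham EPO in 6 of 9 (19.4% of rows).

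The same injured EPO arrays were high or low across the genes. Replicates 2, 4 and 5 held the highest 3 of 6 values in 9 of 9 genes, as they did in 16.3% of all rows. The count was still 9 of 9 after centring or quantile normalization (7.0% and 8.37% of rows). These replicates were named with the data in view, so the counts are descriptions. Placed on a scale from the sham none mean (0%) to the sham EPO mean (100%), replicate 4 stood at a median of 82.5% over the 8 genes other than Apoe. It ranged from 31.1% for Cd36 to 107% for Abca1. Replicate 2 was more even, at 49.5% to 64.0%, and was the highest array for Gpnmb and Cd36, where replicate 4 came next. Replicate 5 ran from 14.5% for Cd36 and 15.9% for Msr1 to 57.7% for Cd68. Replicate 1 had a median of 10.9%, replicate 6 of -1.34% and replicate 3 of -7.74%. Replicate 3 was the lowest of 6 for 7 genes, and replicate 6 for the other two, Msr1 and Lgals3.

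The spacing of the arrays differed between genes in these values. Msr1 was near its sham none level on 3 arrays, with 2.84, 2.79 and 2.78 on replicates 1, 3 and 6, and reached 4.98, 5.14 and 3.50 on replicates 2, 4 and 5. That sham none level is itself near the low end of the table, which leaves little room below it. Cd68 was graded over all 6 arrays, with 7.56, 8.80, 6.23, 9.81, 8.64 and 6.86 on replicates 1 to 6. On replicate 3, 5 of 9 genes lay below every sham none array, as did 37.5% of all rows. Among them were Trem2 at 4.81 and Abca1 at 7.04. Replicates 3, 4 and 5 carry title code 3D, replicates 1 and 2 code 3A and replicate 6 code 3F, and the part of title code in the order was not tested. Array medians moved with the order: they were 5.21, 5.33, 5.05, 5.37, 5.28 and 5.17 on replicates 1 to 6. They ranked the 6 arrays as Plin2 did. Replicates 2, 4 and 5 stayed highest after centring and quantile normalization, as given above. Beyond that, the part of array medians in the order was not tested.

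**Figure D3:**
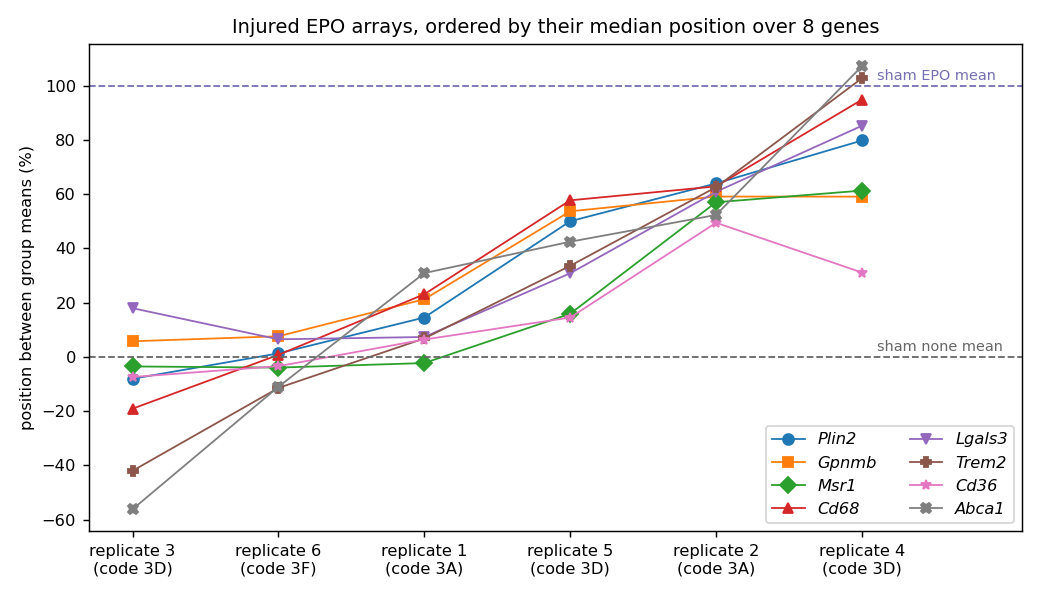
Position of each injured EPO array (horizontal axis, ordered by median position) between the sham none mean (0%) and the sham EPO mean (100%) for 8 genes (symbols joined by lines, vertical axis in percent). Replicate 4 has the highest median at 82.5% and replicate 3 the lowest at -7.74%. Apoe is left out because its 2 group means lie only 0.28 apart.

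Deviations from the group means were correlated within groups over 24 arrays, as a description of arrays that share these mice. The 36 pairs of genes had a median Pearson r of 0.72 (0.47 to 0.94). Over the 6 injured EPO arrays alone the median was 0.91, and over the other 18 arrays it was 0.14, so the joint variation lay mostly in injured EPO. Of 14798 other genes, the 5 with deviations most like the mean of the 9 were Osmr, the oncostatin M receptor (r = 0.98), Litaf, an endosomal and lysosomal protein (0.96), the astrocyte filament gene Gfap (0.96), the complement C3a receptor gene C3ar1 (0.95) and the filament gene Vim (0.95). Over the 18 arrays without injured EPO their r ran from 0.65 (C3ar1) to 0.79 (Osmr).

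Other genes of the same pathways were counted from lists chosen for this purpose with earlier results known. In sham EPO against sham none, 11.5% of all rows were called higher and 7.6% lower by limma at an adjusted p of 0.05. In the 3 comparisons without sham EPO, no gene of any list was called. The differences below are sham EPO minus sham none.

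Of genes of TREM2 signalling and phagocytic microglia, 13 of 14 measured were higher and none lower, with a median difference of 1.37, against 0.03 over all rows. Tyrobp, the adaptor through which TREM2 signals, rose by 2.59 ± 0.29. The signalling adaptor gene Fcer1g rose by 2.76 ± 0.35 and the cathepsin gene Ctsz by 2.57 ± 0.30. On injured EPO arrays Tyrobp followed the members, with 4.21, 5.87, 4.06, 6.38, 5.38 and 4.29 on replicates 1 to 6. Of genes that bind osteopontin or belong with galectins, 7 of 9 rose and none fell (median 0.97). Examples were the integrin gene Itga5 at 2.40 ± 0.21, Lgals9 (galectin-9) at 2.16 ± 0.22 and Lgals3bp (a galectin-3 binding protein) at 2.04 ± 0.35.

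Lipid genes moved less uniformly than Plin2 did. Of 14 measured genes of droplets and triglyceride turnover, 4 rose and 2 fell, and the median was -0.01. Plin3, another droplet coat gene, rose by 0.90 ± 0.18, Hilpda, an inhibitor of droplet lipolysis, by 0.76 ± 0.13, and Pnpla2, the triglyceride lipase that starts droplet breakdown, by 0.75 ± 0.11. Those that fell, picked by their values, were Dgat2, a triglyceride synthesis enzyme (-0.48 ± 0.08), and the fatty acid activating enzyme gene Acsl4 (-0.55 ± 0.15). After array centring 3 rose and 3 fell. Cholesterol export and LXR target genes rose in 6 of 13 and fell in 1 (median 0.33), with Ch25h, which makes an oxysterol, at 2.15 ± 0.19, Npc2, a lysosomal cholesterol carrier, at 1.16 ± 0.16 and Lipa, the lysosomal acid lipase, at 0.93 ± 0.22. Scd2, a fatty acid desaturase gene picked by its value, was the member that fell (-0.23 ± 0.06), a call lost when title code was blocked. After array centring 5 of the 13 rose and 3 fell. Scavenger, lipoprotein and dead-cell receptors rose in 7 of 17 and fell in 2 (median 0.22), with Stab1 at 1.37 ± 0.19 and Colec12 at 1.27 ± 0.19, both scavenger receptors. The lipoprotein receptor gene Vldlr, picked likewise (-0.39 ± 0.10) and Tyro3, a receptor for dead-cell ligands (-0.61 ± 0.21), fell. The Tyro3 call was lost in a fit of the sham groups alone and on leaving out any of 11 single arrays. Array centring gave 4 rises and 3 falls. Lysosome and MiT/TFE genes rose in 9 of 12 and fell in none (median 0.59), among them Grn (progranulin) at 1.24 ± 0.15, the lysosomal membrane gene Lamp2 at 1.12 ± 0.16 and the hexosaminidase gene Hexa at 0.84 ± 0.12.

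**Figure D4:**
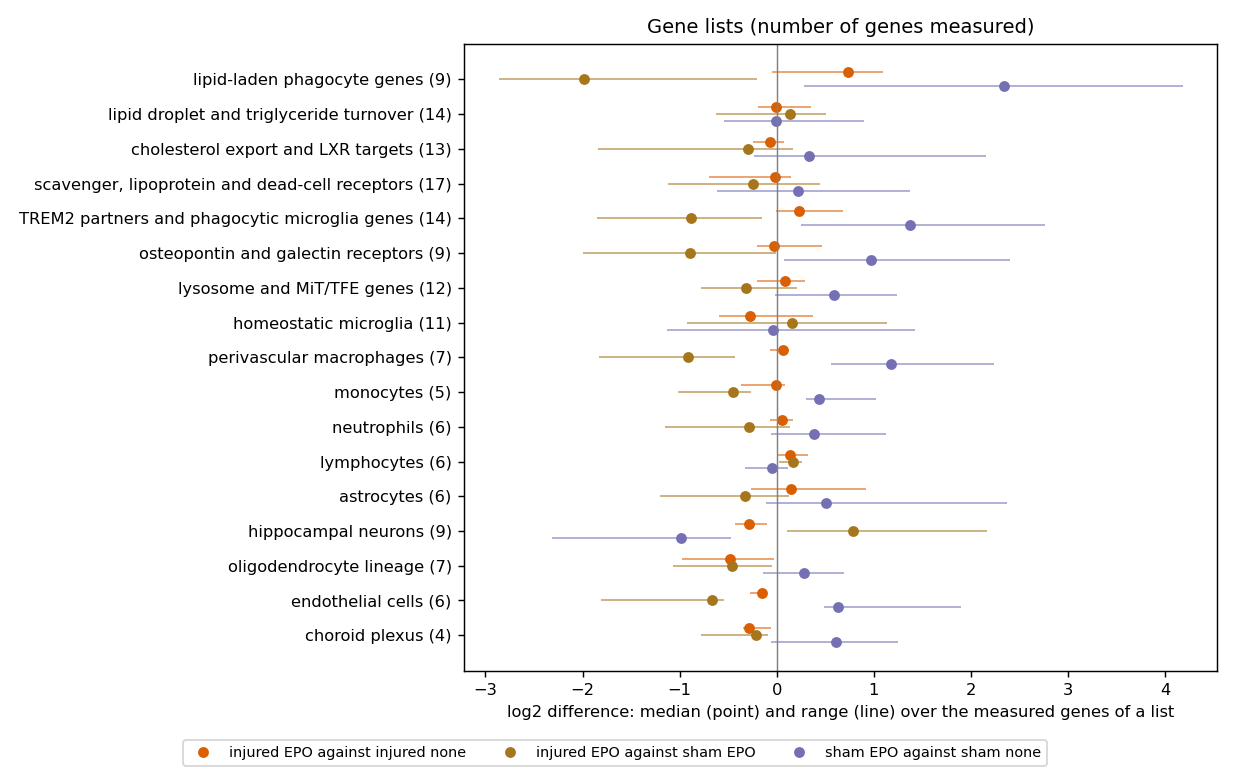
Log2 differences (horizontal axis) for 17 gene lists (rows, with the number of genes measured) in 3 comparisons. Points are medians and lines run over the lowest and highest gene. The lipid-laden phagocyte genes have a median of 2.34 for sham EPO against sham none, and the droplet and triglyceride list -0.01.

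Markers of the cells that could carry these genes were set beside them. Of 11 homeostatic microglia markers, 2 rose and 5 fell in sham EPO against sham none (median -0.04). Fcrls rose by 1.42 ± 0.19 and the purinergic receptor gene P2ry13 fell by 1.13 ± 0.17. Their mean log2 level over the list ran from 6.16 to 6.45 on sham EPO arrays and from 6.22 to 6.69 on sham none. Perivascular macrophage markers rose in 7 of 7, with F13a1 at 2.24 ± 0.23 and Lyve1 at 1.98 ± 0.23, and their list mean ran from 5.56 to 6.15 in sham EPO and from 4.39 to 4.81 in sham none. Monocyte markers rose in 4 of 5 at low levels, with list means of 3.67 to 4.55 and 3.43 to 3.63 in those groups. Ccr2, a receptor of recruited monocytes, rose by 1.03 ± 0.21 to a mean of 3.61 in sham EPO, against 2.58 in sham none, and 1 of the 5 markers was called with arrays centred. Neutrophil markers rose in 3 of 6 (list means 3.61 to 4.69 in sham EPO and 3.32 to 3.67 in sham none), with S100a8 at 1.13 ± 0.32, and none were called when title code was blocked. None of 6 lymphocyte, 7 oligodendrocyte lineage and 4 choroid plexus markers was called. Astrocyte markers rose in 3 of 6, with Gfap at 2.37 ± 0.33. Endothelial markers rose in 5 of 6, with Cdh5 at 1.90 ± 0.19. The call of Kdr, a vascular growth factor receptor gene, was lost on leaving out any of 14 single arrays, and 3 of the 6 markers were called when title code was blocked. Hippocampal neuron markers fell in 8 of 9, with Fibcd1 at -2.12 ± 0.20. The part of any of these cell types in the phagocyte genes was not tested.

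Among injured EPO arrays the markers moved less evenly with the phagocyte genes. Over replicates 1 to 6 the mean of the 6 measured astrocyte markers was 9.81, 10.22, 9.35, 10.59, 10.18 and 9.63, the same order of arrays as for Plin2. Perivascular macrophage markers averaged 4.85, 5.19, 4.51, 5.22, 4.74 and 4.58. Homeostatic microglia markers averaged 6.54, 6.44, 6.12, 6.53, 6.46 and 6.45, with only replicate 3 apart. Monocyte markers averaged 3.48, 3.69, 3.65, 3.66, 3.47 and 3.53, highest on replicate 2. Of these, Ccr2 was dim, with a mean of 2.58 in sham none. It read 2.38, 2.67, 3.15, 2.54, 2.39 and 2.41, highest where Plin2 was lowest. That array, replicate 3, also had the lowest array median, 5.05, whose part in the Ccr2 value was not tested. Neutrophil markers averaged 3.54, 3.74, 3.86, 3.49, 3.31 and 3.66, and S100a8 stayed between 2.39 and 2.70.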

How the data were processed

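Total RNA of the right hippocampus of 24 mice was hybridised to Affymetrix exon arrays (type Mouse Exon 1.0 ST), 1 per mouse. The authors deposited log2 values from RMA in Affymetrix Expression Console, per the submitters' processing notes. RMA as a method subtracts background, equalises probe distributions and fits 1 value per row. Software versions, summary level and genome build are not given in the sources used. No detection measure came with the 23238 rows, none of which lacked a value.

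Rows were named from the platform annotation, using exact symbols on rows with 1 symbol; 989 rows carry several and 7310 none. Members, lists, tests and the naming rule were chosen with earlier results of these data known. Named were all 9 measured members, the up to 3 genes per list with the largest difference in sham EPO against sham none, and the 5 genes most like the members. The rule also took up to 4 genes per list past the threshold in injured EPO against injured none, where none passed. Some genes that the rule allows are left unnamed.

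A single limma model (limma 3.58.1, R 4.3.3) gave every row a mean for each of 4 groups across the 24 arrays, leaving 20 residual degrees of freedom, or 23.3 after variance moderation. Benjamini-Hochberg adjustment covered all 23238 rows, and the threshold was 0.05. Simulated tables (3, each with 200 changed rows) were used to check the model. The labels do not say whether pups shared a litter, and p-values measure the spread between arrays. Replicates were numbered in accession order and pair nothing. Alternatives covered scaling, dim rows, rows tested, variance model, weights, title code, which arrays were fitted, how titles were read and each array left out. Weights by group and list counts under each alternative were added after seeing the data.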

Additional observations from a re-analysis of the deposited data

Results flagged for a closer look

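The EPO difference in injured mice minus the EPO difference in sham mice, as labelled, was flagged in 7 genes, all called lower by limma. It was -3.27 for Plin2, -2.88 for Msr1, -2.24 for Cd68, -2.20 for Cd36, -2.13 for Gpnmb, -1.58 for Trem2 and -1.30 for Lgals3 (log2). For Abca1 and Apoe, which were not flagged, it was -1.09 and -0.34. Limma called 7 of the 9 members lower at the threshold, against 1336 of all 23238 rows, with 360 rows called higher. This difference contains the comparison on which the genes were chosen, so the calls and values are descriptions with no independent test of the genes. With the titles read the other way these values stay the same, since sham EPO and injured none enter them alike.

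Of 36 pairs of gene and group, 4 held 1 array far from the other 5, where chance would pick out about 1 in 20. These were Plin2 on injured none replicate 6 (6.70, lowest), Plin2 on sham none replicate 5 (6.05, lowest), Cd68 on sham EPO replicate 2 (10.31, highest) and Lgals3 on sham EPO replicate 5 (6.29, lowest).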

How the results depend on the processing

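In the 3 comparisons without sham EPO, 0 members passed under every alternative except the other reading of the titles, and with each array left out (0 to 0). With the titles read the other way, 8 members passed in injured EPO against injured none and 8 in injured none against sham none. Over all 23238 rows, 3226 and 4445 were called in these comparisons. Both then use the arrays labelled sham EPO, which were in view when the genes were chosen, so the counts are descriptions. The differences for injured EPO against injured none then became -2.78 for Plin2, -2.11 for Gpnmb, -2.86 for Msr1, -1.98 for Cd68, -1.36 for Lgals3, -1.18 for Trem2, -1.99 for Cd36 and -0.92 for Abca1, and for injured EPO against sham EPO 0.91, 1.09, 0.74, 0.89, 0.78, 0.00505, 0.14 and 0.18 for the same genes. Lgals3 became 2.08 in injured none against sham none and -0.0588 in sham EPO against sham none. Small differences changed sign elsewhere. For injured none against sham none, Msr1 came to -0.00102 with quantile normalization and -0.0588 with centring, and Gpnmb to -0.0548 with centring. Apoe in injured EPO against sham none came to -0.0252 when title code was blocked and -0.0276 within code 3D. Leaving out each array gave ranges that crossed 0 in injured EPO against injured none for Trem2 (-0.24 to 0.22), Abca1 (-0.0230 to 0.39), Cd36 (-0.0165 to 0.25) and Apoe (-0.12 to 0.0328), and in injured none against sham none for Gpnmb (-0.0363 to 0.0446) and Msr1 (-0.0138 to 0.0317). Called rows for sham EPO against sham none numbered 4445 as reported (2679 higher), 5307 with quantile normalization (2611 higher), 6076 with centring (1790 higher), 3163 when title code was blocked and 862 within code 3D, where fewer arrays were fitted. Within code 3D, 1 of 12 lysosome genes, 1 of 13 cholesterol genes and 9 of 14 TREM2 and phagocytic genes were called higher. Cd36, Gpnmb and Msr1 have a mean under 5 and were not tested where dim rows were left out. The alternative of other rows per gene could not be run, since each member had 1 row. No paired analysis was possible because the replicate numbers follow accession order and the labels pair no mice. Rows near the low end of the table carry little signal, which limits Msr1 and Cd36 outside sham EPO.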
